A study of Ursus arctos with 5 samples.

Results

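The machinery that makes and destroys messenger RNA was followed in grizzly bear muscle through the transcripts of the RNA polymerase subunits, the general transcription factors, the cleavage and polyadenylation factors, the CCR4-NOT deadenylase, the nonsense-mediated decay factors, the RNA exosome and the XRN and DCP decay enzymes. Members were all transcripts whose assigned gene name begins with POLR, GTF, TAF, CNOT, EXOSC, UPF, SMG, CPSF, CSTF, XRN or DCP, followed by a number where the family is numbered. This gave 96 transcripts of 53 genes, out of 9093 transcripts of 4873 genes with a name, picked by name alone from a table that keeps only transcripts at 1 RPKM or more in every library. Of the 133 gene symbols that were written down for these complexes, 53 carried a transcript. UPF1, XRN1, DCP1A, DCP1B and DCP2 were not analysed here, and neither was any exosome subunit other than EXOSC6 and EXOSC10.

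The study asked how gene activity in skeletal muscle differs between active and hibernating bears, which lose little muscle while they rest for months. Biopsies of the gastrocnemius, a calf muscle, came from captive grizzly bears (Ursus arctos), in October, when the animals fed and moved, and in February, when they had been without food and mostly at rest. Poly(A) RNA from 2 of the bears, named Tia and Star, was sequenced as single-end reads in both months, which gave 4 libraries, 2 hibernating and 2 active. Both bears were anesthetized with tiletamine and zolazepam, at a lower dose in hibernation, and kept under isoflurane for the biopsy. An age of 10 years stands in the labels of every sample, whereas the study's own table names the values of Tia as those of a subadult and the values of Star as those of an adult. Age class and individual therefore cannot be told apart, and each state was seen once in each bear.

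Cells have separate RNA polymerases for ribosomal RNA (polymerase I), for messenger RNA (polymerase II), for transfer RNA and other small RNAs (polymerase III) and for the mitochondrial genome (POLRMT). Polymerase II starts with the help of general factors, among them TFIID, which is built of TAF proteins, and the finished transcript is cut and given a poly(A) tail. Decay of the message usually begins when CCR4-NOT shortens that tail, after which the RNA is degraded by the exosome or by XRN exonucleases, while the UPF and SMG proteins direct messages with a premature stop codon to destruction.

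The single-end libraries corresponded to 44.63 to 54.13 M (mega) aligned reads. A member transcript rested on 23 to 9386 reads per library, with a median of 320. Values are RPKM, reads divided by transcript length in kilobases and by library depth in M aligned reads, and every transcript in the table is at 1 RPKM or more in each library, so that a member which dropped below 1 RPKM in any library was not analysed here. Marker genes were each read by their transcript with the most reads, so the sums leave out any other transcripts of these genes. Of the skeletal muscle markers, MYH1, MYH2, MYH7 and TTN were measured, 4 of 10. Their sum was 9467 RPKM in the hibernating and 11377 in the active library of Tia, and 12938 and 13731 in Star. In hibernation and in activity, the 4 of 7 connective tissue markers measured summed to 271 and 317 RPKM in Tia and to 225 and 148 in Star, lower in hibernation in one bear and higher in the other. The single blood and immune marker measured, CD68, stood at 6.4 and 3.9 RPKM in Tia and at 7.1 and 3.3 in Star. The single markers of fat cells and of endothelium that were measured, PLIN4 and PECAM1, were lower in hibernation in Tia and higher in Star. The part of these shifts in the changes below was not tested, and in whole tissue fewer cells of a type and less RNA per cell cannot be told apart.

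By RPKM these genes spread from percentile 0.8 (SMG6) to 95.3 (POLR2F) of all named genes, and 22 of the 53 (41.5%) lay above the median. Most polymerase II subunits lay above it. Whether the single-end libraries were made from nuclease-normalized cDNA, which evens out abundance, is not given in the sources used here, so the order of levels holds for these libraries and may be compressed. The median level over the 53 genes, each by its transcript with the most reads, was 4.53 RPKM, beside 4.90 RPKM over all 4873 named genes, and 8 of the 53 genes (15.1%) reached 10 RPKM, beside 26.2% of all named genes. The 6 highest levels all belonged to polymerase II subunits. They ran from POLR2F at 62.9 RPKM, the mean of 4 libraries, through POLR2E at 32.5, POLR2B at 26.7, POLR2G at 19.3 and POLR2A at 17.2 to POLR2I at 15.5. POLR2F stood apart from all others in every library. POLR2B exceeded POLR2E in both libraries of Tia and lay below it in both of Star, and the ranges of POLR2B, POLR2G, POLR2A and POLR2I overlapped. Next came TAF4 at 14.5 RPKM and POLR3C at 11.3 RPKM, whose 4 values all lay above those of the next gene, UPF2 at 7.85 RPKM. Below UPF2 the ranges of neighbouring genes overlapped throughout. The lowest were POLR2K at 2.07, POLR1A at 1.82 and SMG6, the endonuclease of nonsense-mediated decay, at 1.37 RPKM. POLR2F, POLR2E and POLR2K are subunits that all 3 nuclear polymerases share, and they stood at both ends of this order.

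**Figure D1:**
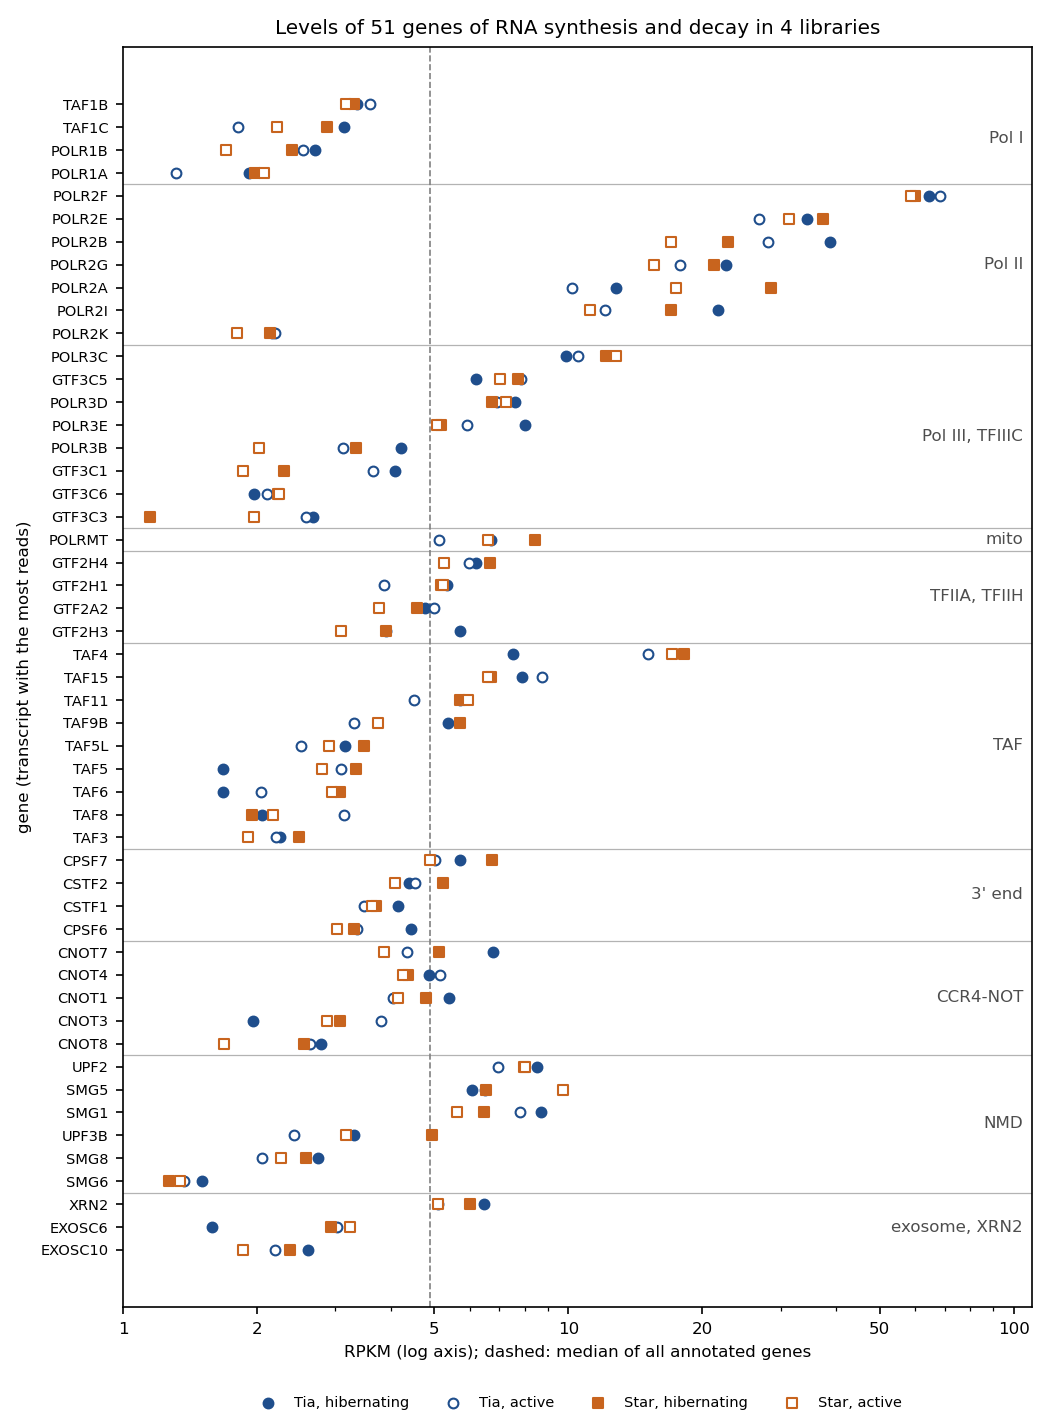
RPKM of 51 of the 53 genes on a log axis, 1 row per gene (its transcript with the most reads) grouped by role, with filled symbols for hibernating and open symbols for active libraries, circles for Tia and squares for Star. The polymerase II subunits except POLR2K lie right of the dashed line at 4.90 RPKM, the median of all named genes, and in most rows the 4 symbols lie close together.

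No member passed the test for a difference between hibernation and activity. With limma on log2(RPKM + 0.5), 0 of the 96 transcripts had an adjusted p under 0.05 (members 0.541 to 0.981), as did 0.0% of the 9093 named transcripts. At an unadjusted p under 0.05 there were 8 members (8.33%), beside 9.08% of all named transcripts. A score built after the method NOISeq, which asks how often a change between states exceeds the differences between the bears, reached its threshold of 0.8 for 1 member (1.04%), beside 3.61% of all named transcripts. With 2 libraries against 2, an exact permutation test of a single transcript that leaves the bears unpaired cannot give a two-sided p below 0.333. The words higher and lower below therefore describe the 4 values and no call. Where a pair of RPKM values is given for a bear, the hibernating library comes first and the active one second.

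The members leaned to higher levels in hibernation, about as the rest of the transcriptome did. Both hibernating libraries lay above both active ones for 42 of the 96 transcripts (43.8%), beside 34.6% of all named transcripts, and below both for 4 (4.17%), beside 8.8%. Counted once per gene, the shares were 20 of 53 (37.7%) beside 35.8% above and 2 of 53 (3.77%) beside 8.11% below. In 58 transcripts (60.4%) the level was higher in hibernation in both bears, beside 47.8%, and in 12 (12.5%) it was lower in both, beside 17.2%. By gene these shares were 29 of 53 (54.7%), beside 48.7% of all named genes, and 5 of 53 (9.43%), beside 16.1%. The shares of all named genes are the background for the small counts by group given below, none of which was tested. The median log2 change, hibernating minus active, was 0.18 over the 53 genes (0.17 in Tia and 0.19 in Star), and 0.15 over all named genes. Without the active library of Star the members' median was 0.117.

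The size of this lean depends on how the libraries are scaled. The median log2 change of all named genes, 0.146 as deposited, became −0.004 under the median ratio and 0.008 under the upper quartile. Each scaling thus takes out a shift that most transcripts share, whatever its source. The smaller lean and the changes of sign below follow in large part from that step. They cannot show what the lean rests on, and the source of the shared shift was not tested. Scaling by the median ratio moved the log2 change of a named transcript by a median of −0.118 in Tia and −0.18 in Star, and scaling by the upper quartile by a median of −0.132 and −0.142. The split of 42 transcripts above and 4 below then became 22 and 13 under the median ratio (22.9% and 13.5%, beside 19.3% and 18.1% of all named transcripts) and 24 and 14 under the upper quartile (25.0% and 14.6%, beside 21.0% and 16.7%). Under both scalings as well as in the deposited values, 22 transcripts of 15 genes stayed above (22.9%, beside 19.2% of all named transcripts), and 4 transcripts of 3 genes, TAF15, TAF8 and EXOSC6, stayed below (4.2%, beside 8.8%). Of the 71 transcripts whose mean change was above 0, 11 turned negative under the median ratio and 10 under the upper quartile. Those 11 belong to POLR2K, POLR3D, TAF11, CSTF1, CSTF2, GTF2A2, EXOSC10, SMG6 and UPF2, and the exception under the upper quartile was CSTF2.

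**Figure D2:**
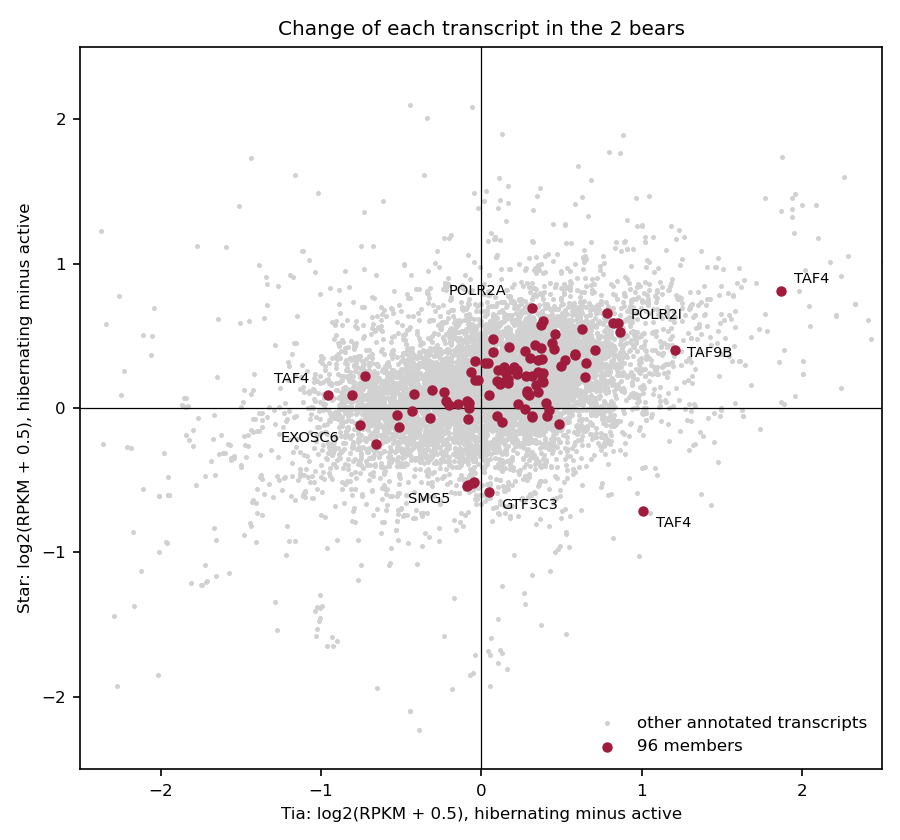
Change of each transcript, hibernating minus active on the log2(RPKM + 0.5) scale, in Tia (horizontal) and Star (vertical), with the 96 members in red over the other named transcripts in grey, of which 28 lie outside the axes. With 58 of the 96, most members sit in the upper right within the grey cloud, and 1 transcript of TAF4 lies far out to the upper right.

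The difference between the bears was often as large as that between the states. Over the 53 genes the median size of the log2 change between states was 0.245, and the median size of the difference between Tia and Star was 0.185. In 26 genes (49.1%) the bears differed by more than the states, beside 47.5% of all named genes. Tia lay above Star in both states in 44 of the 96 transcripts, and Star above Tia in both in 22 (45.8% and 22.9%). Over all named transcripts the shares were even, at 31.3% and 31.8%; the difference was not tested, and transcripts of a gene can share reads.

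Among the polymerase I genes, each by its transcript with the most reads, TAF1C differed most between the states. Of 4 genes measured in this group, 2 were higher in hibernation in both bears and none was lower in both, and the median log2 change was 0.21, or 0.06 above that of all named genes. POLR1A encodes the largest subunit of polymerase I. Its transcript with the most reads stood at 1.92 RPKM in the hibernating and 1.32 in the active library of Tia, and at 1.98 and 2.07 in Star. It was thus higher in hibernation in Tia and nearly level in Star (log2 change 0.18 ± 0.23, limma standard error). A second, 677 bases long, was higher in hibernation in both bears, with 2.71 and 1.46 RPKM in Tia and 2.92 and 2.08 in Star (0.56 ± 0.23). TAF1B and TAF1C belong to SL1, the factor that places polymerase I on the ribosomal RNA gene. TAF1C had 3.14 and 1.81 RPKM in Tia and 2.87 and 2.22 in Star, so that its states did not overlap (0.48 ± 0.21). TAF1B, the most abundant of the group, had 3.35 and 3.59 RPKM in Tia and 3.30 and 3.17 in Star, with the states intermixed (−0.02 ± 0.22). POLR1B, the second largest subunit, had a log2 change of 0.23 ± 0.24, with overlapping states.

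The polymerase II subunits had a median log2 change of 0.39 over 7 genes, 0.24 above that of all named genes. Over all 13 of their transcripts the median was 0.19, beside 0.13 over all named transcripts. By gene, 5 of the 7 were higher in hibernation in both bears, beside 48.7% of all named genes. POLR2I, a small subunit in the jaw that grips the incoming DNA, differed most. It had 2 transcripts, of 760 and 512 bases. The longer stood at 21.7 RPKM in the hibernating and 12.1 in the active library of Tia, and at 17.0 and 11.2 in Star. Both hibernating values exceeded both active ones by a wide margin, and the log2 change was 0.70 ± 0.22 (unadjusted p = 0.021, adjusted p = 0.541). The shorter transcript stood at 30.7 and 16.7 RPKM in Tia and at 24.0 and 15.8 in Star, again without overlap (0.72 ± 0.22, unadjusted p = 0.018, score 0.789). Its score fell just short of 0.8.

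POLR2G, which with a partner subunit forms the stalk of the enzyme, was also without overlap. It had 22.6 and 17.8 RPKM in Tia and 21.3 and 15.6 in Star (0.39 ± 0.21). POLR2E, one of the shared subunits, was higher in hibernation in both bears, with 34.4 and 26.8 RPKM in Tia and 37.3 and 31.3 in Star (0.30 ± 0.21), though the separation of the states was lost under both scalings. POLR2F, another shared subunit and the most abundant member, scarcely moved, with 64.5 and 68.4 RPKM in Tia and 60.2 and 58.7 in Star (−0.02 ± 0.22). POLR2K, the smallest of the shared subunits here, had 4 transcripts with log2 changes of 0.08 to 0.18, of which the pair near 0.08 turned negative under both scalings.

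POLR2A and POLR2B, the core pair of the enzyme, together form the catalytic centre. By their transcripts with the most reads, both differed more between the bears than between the states. Tia minus Star was −0.93 for POLR2A and 0.73 for POLR2B on the log2 scale. POLR2B had 38.8 and 28.1 RPKM in Tia and 22.8 and 17.0 in Star. Each bear was higher in hibernation, by 0.46 in Tia and 0.41 in Star. Active Tia still exceeded hibernating Star, so the states overlapped (0.43 ± 0.36, an error that includes the difference between the bears). The mean change was 0.057 without hibernating Tia and 0.810 without hibernating Star. POLR2A showed the reverse order of the bears. Its transcript with the most reads, of 2908 bases, had 12.8 and 10.2 RPKM in Tia and 28.5 and 17.4 in Star (0.50 ± 0.44). The transcript of 5311 bases had 9.81 and 6.86 RPKM in Tia and 8.54 and 9.27 in Star, higher in hibernation in Tia only (0.19 ± 0.24). A short one of 808 bases had 1.33 and 1.98 RPKM in Tia and 2.58 and 2.63 in Star, lower in both bears (−0.23 ± 0.31). The 3 pieces of POLR2A thus disagreed in direction and in the order of the bears.

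Polymerase III and its assembly factor TFIIIC had the second lowest median change of the groups, 0.02 over 9 genes. That median is 0.13 below that of all named genes and becomes −0.139 and −0.126 under the median-ratio and upper-quartile scalings. Over all 10 transcripts of the group the median was 0.11, beside 0.13 over all named transcripts, so the distance depends on the choice of transcript. The parts differed in the deposited values. The 4 TFIIIC genes had a median of −0.07, with 1 higher in hibernation in both bears. The 5 polymerase III genes had one of 0.22, beside 0.15 over all named genes, with 3 higher in both bears. POLR3B, the second largest subunit, had 4.22 and 3.12 RPKM in Tia and 3.34 and 2.03 in Star (0.49 ± 0.27). Its states lay apart in the deposited values by little, the lower hibernating value being 3.34 and the higher active value 3.12, and met under both scalings.

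Smaller mean changes were seen in POLR3C, POLR3D and POLR3E. POLR3C, the most abundant of the group, had 9.90 and 10.5 RPKM in Tia and 12.1 and 12.8 in Star (−0.08 ± 0.23). It was slightly lower in hibernation in both bears, and Star was higher than Tia in both states. POLR3D had a log2 change of 0.02 ± 0.21, negative under both scalings, and POLR3E, by its transcript with the most reads, one of 0.22 ± 0.28. TFIIIC recognises the promoter of transfer RNA genes. Its subunit GTF3C3 had 2.68 and 2.57 RPKM in Tia and 1.15 and 1.97 in Star, so the difference was that of Star (−0.27 ± 0.35), whose hibernating value lies near the minimum of 1 RPKM. GTF3C5 had 6.21 and 7.82 RPKM in Tia and 7.72 and 7.03 in Star, opposite in the bears (−0.09 ± 0.23). GTF3C1 (0.20 ± 0.38) and GTF3C6 (−0.04 ± 0.20) overlapped between the states.

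POLRMT, the single polymerase of the mitochondrial genome, was higher in hibernation in both bears, and its 2 transcripts moved alike. The one with the most reads had 6.70 and 5.13 RPKM in Tia and 8.44 and 6.59 in Star (0.34 ± 0.25). Star exceeded Tia in both states, and the hibernating values lay above both active ones by only 0.1 RPKM; the separation was lost under both scalings.

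Of the general factors of polymerase II, 1 subunit of TFIIA (GTF2A2) and 3 of TFIIH were measured. All 4 mean changes were above 0, at 0.09 to 0.39, with a median of 0.19, or 0.05 above that of all named genes. TFIIH opens the DNA at the start site and also serves in DNA repair. Its subunit GTF2H3 had 5.71 and 3.90 RPKM in Tia and 3.90 and 3.09 in Star (0.39 ± 0.27), with the hibernating value of Star no higher than the active value of Tia. GTF2H4 had 6.19 and 5.99 RPKM in Tia and 6.66 and 5.27 in Star, a small separation that was lost under both scalings (0.18 ± 0.22). GTF2H1 (0.20 ± 0.24) was higher in hibernation in Tia alone by its longer transcript. The shorter one, of 2547 bases, had hibernating libraries above the active ones under every scaling (0.33 ± 0.21). GTF2A2 (0.09 ± 0.24) turned negative under both scalings.

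**Figure D3:**
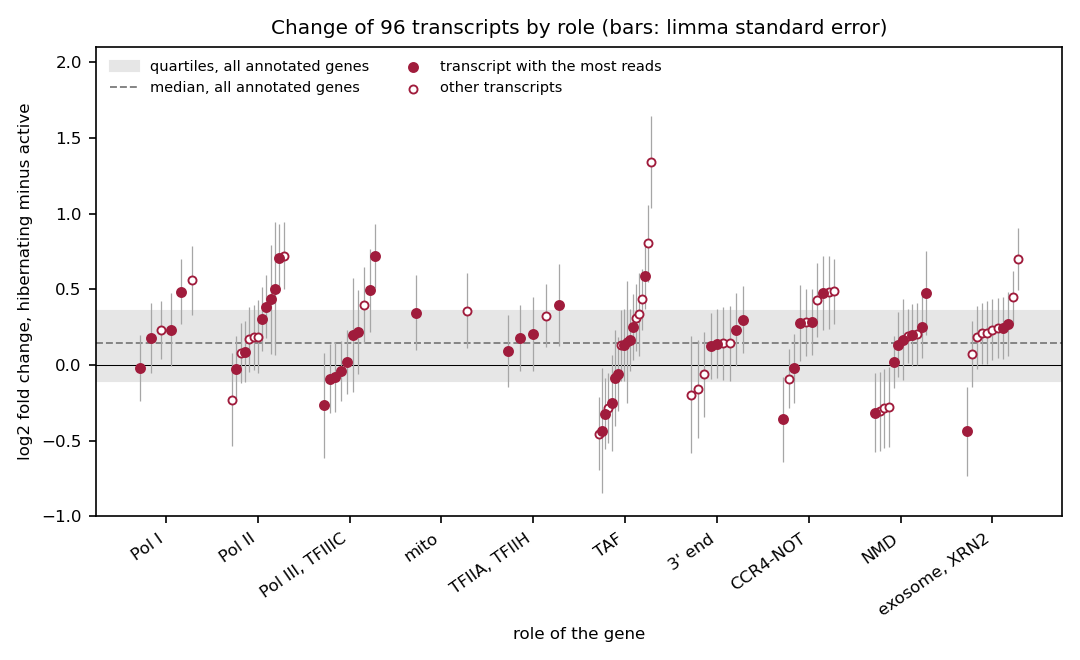
Mean log2 change of the 96 transcripts, hibernating minus active, by role, with bars for the limma standard error, filled points for each gene's transcript with the most reads, open points for the others, and the grey band for the quartiles of all named genes. Most bars reach into the band, the TAF proteins hold the widest spread, and 1 open point of TAF4 at 1.34 lies above all others.

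The TAF proteins held both the highest mean change of the 96 transcripts and several of the lowest. These are the subunits of TFIID, and some also serve in SAGA-type coactivators. Over 9 genes the median log2 change was −0.06, the lowest of the groups and 0.20 below that of all named genes. Over all 18 of their transcripts it was 0.14, beside 0.13 over all named transcripts, so the low rank depends on the choice of transcript. By gene, 3 were higher in hibernation in both bears and 1 was lower in both. TAF4, a scaffold subunit of TFIID, had 5 transcripts that disagreed. The transcript of 749 bases stood at 15.5 RPKM in hibernating and 3.86 in active Tia, and at 11.5 and 6.37 in Star. Its states were far apart in both bears, by a factor of 2.53 on the log2(RPKM + 0.5) scale (1.34 ± 0.30, unadjusted p = 0.005, adjusted p = 0.541), and it was the only member with a score of at least 0.8 (0.914). The transcript of 2495 bases, which held the most reads, had 7.53 and 15.1 RPKM in Tia and 18.2 and 17.1 in Star. Here hibernating Tia was the one low library, and the mean change was negative (−0.43 ± 0.41). Another, of 1434 bases, changed by 1.01 in Tia and by −0.71 in Star, and the other two were higher in hibernation in both bears (0.31 and 0.33).

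TAF9B, a histone-fold subunit close in sequence to TAF9, was higher in hibernation by both transcripts. The longer had 5.37 and 3.30 RPKM in Tia and 5.70 and 3.74 in Star (0.59 ± 0.22, unadjusted p = 0.037, adjusted p = 0.549), and the shorter had 3.36 and 1.17 RPKM in Tia and 2.50 and 1.77 in Star (0.80 ± 0.25, unadjusted p = 0.020). The states did not overlap in either, though reads of a near copy such as TAF9 could have been counted here, and active Tia lies near the minimum of 1 RPKM in the shorter. TAF5L, a relative of TAF5 in SAGA-type complexes, was higher in hibernation by both its transcripts (0.25 and 0.43).

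TAF8, TAF5 and TAF6, further subunits of TFIID, had negative mean changes. TAF8 had 2.05 and 3.14 RPKM in Tia and 1.95 and 2.18 in Star, with both hibernating libraries below both active ones under every scaling (−0.32 ± 0.24). TAF5 had 1.68 and 3.09 RPKM in Tia and 3.34 and 2.79 in Star, and TAF6 had 1.68 and 2.04 in Tia and 3.07 and 2.95 in Star. In both genes hibernating Tia was the lowest library and Star moved the other way (−0.25 ± 0.32 and −0.09 ± 0.31). TAF15, an RNA-binding protein that associates with TFIID, had a negative mean in all 3 transcripts, from −0.45 to −0.06, and in 2 of them the hibernating libraries lay below the active ones. The lower of these had 2.94 and 4.93 RPKM in Tia and 3.04 and 3.71 in Star. TAF3 (0.17 ± 0.20) and TAF11 (0.13 ± 0.24) changed by less than their errors, and TAF11 turned negative under both scalings.

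Cleavage and polyadenylation factors had changes near the median of all named genes. All 4 genes had mean changes of 0.13 to 0.30, with a median of 0.19, or 0.04 above it, and 2 of the 4 had hibernating libraries above the active ones, beside 35.8% of all named genes. CPSF7, a subunit of the cleavage factor that helps choose the poly(A) site, had 5.72 and 5.02 RPKM in Tia and 6.74 and 4.89 in Star, without overlap under either scaling (0.30 ± 0.22). CPSF6, its partner in the same factor, had 5 transcripts between −0.20 and 0.23. CSTF1 and CSTF2 belong to the cleavage stimulation factor, which binds downstream of the cut. They had changes of 0.13 ± 0.22 and 0.14 ± 0.23, and both turned negative under the median-ratio scaling.

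CCR4-NOT, which shortens poly(A) tails, was led by CNOT7 when each gene was taken by its transcript with the most reads. Over 5 genes the median log2 change was 0.28, or 0.13 above that of all named genes, with 3 of the 5 genes higher in hibernation in both bears (beside 48.7% of all named genes) and none lower in both (beside 16.1%). CNOT7, one of its catalytic deadenylases, had 6.77 and 4.35 RPKM in Tia and 5.12 and 3.86 in Star. Both hibernating values lay above both active ones under every scaling (0.47 ± 0.24), and the other two transcripts of CNOT7 gave 0.43 and 0.48. CNOT8, its close relative, had 0.28 ± 0.25, with overlapping states, and reads of the pair may have been exchanged.

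CNOT1 is the scaffold on which the complex is built. It had 5.39 and 4.03 RPKM in Tia and 4.80 and 4.14 in Star, also apart under every scaling (0.28 ± 0.22). The transcript of 8653 bases, with nearly the same change, lost its separation under the median ratio, and the one of 2404 bases kept it (0.49 ± 0.21). CNOT3 went the other way in Tia only, with 1.96 and 3.79 RPKM, while Star had 3.07 and 2.86 (−0.36 ± 0.28). CNOT4, a ubiquitin ligase that associates with the complex, had a change of −0.02 ± 0.23.

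In nonsense-mediated decay, 7 genes had a median log2 change of 0.17, which is 0.02 above that of all named genes. SMG1, the kinase that phosphorylates UPF1, had 8.68 and 7.79 RPKM in Tia and 6.48 and 5.63 in Star, higher in hibernation in both bears, yet Tia exceeded Star throughout (0.17 ± 0.27). UPF2, an adaptor of UPF1 and the most abundant of the group, had 8.49 and 6.95 RPKM in Tia and 7.97 and 7.99 in Star. Star was level, and the mean change of 0.13 ± 0.21 turned negative under both scalings. UPF3B, which links the pathway to the exon junction complex, had 3.29 and 2.42 RPKM in Tia and 4.95 and 3.17 in Star. The change was the highest of the group (0.47 ± 0.28), but hibernating Tia at 3.29 and active Star at 3.17 nearly met, and the separation was lost under both scalings.

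SMG5, which takes part in the decay that follows UPF1 phosphorylation, was the one gene of this group lower in hibernation in both bears. Its transcript with the most reads had 6.08 and 6.51 RPKM in Tia and 6.52 and 9.72 in Star. The difference was that of active Star, which stood above the 3 others (−0.32 ± 0.26), and the same shape was seen in all 4 transcripts (−0.32 to −0.28). SMG8, a regulator of SMG1, had hibernating libraries above the active ones in the deposited values, with a change of 0.25 ± 0.20. SMG6 had 0.02 ± 0.17.

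Among the RNA-degrading enzymes, EXOSC10 and XRN2 were higher in hibernation in both bears and EXOSC6 was lower in both. EXOSC10 is a nuclear exonuclease attached to the exosome. Each of its 9 transcripts was higher during hibernation in Tia and in Star, with log2 changes of 0.07 to 0.70. The one with the most reads, of 2938 bases, had 2.61 and 2.19 RPKM in Tia and 2.37 and 1.86 in Star (0.24 ± 0.21). Of 1275 bases, a second had 1.89 and 1.26 RPKM in Tia and 1.74 and 1.14 in Star (0.45 ± 0.17, unadjusted p = 0.043). The shortest, of 396 bases, had 3.00 and 1.42 RPKM in Tia and 2.37 and 1.49 in Star (0.70 ± 0.21, unadjusted p = 0.015, adjusted p = 0.541). These last 2 stayed apart under every scaling, but at levels close to the minimum of 1 RPKM. The least changed of the 9, at 0.07, turned negative under both scalings.

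EXOSC6 is a structural subunit of the exosome ring. It had 1.59 and 3.03 RPKM in Tia and 2.94 and 3.24 in Star, the lowest mean change of all 53 genes (−0.44 ± 0.29). Both hibernating values lay below both active ones under every scaling, and most of the difference came from Tia. XRN2, the nuclear exonuclease that degrades the RNA still attached to polymerase II after cleavage, had 6.48 and 5.11 RPKM in Tia and 6.03 and 5.09 in Star. The 2 states did not overlap under any scaling, and the change was 0.27 ± 0.21.

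**Figure D4:**
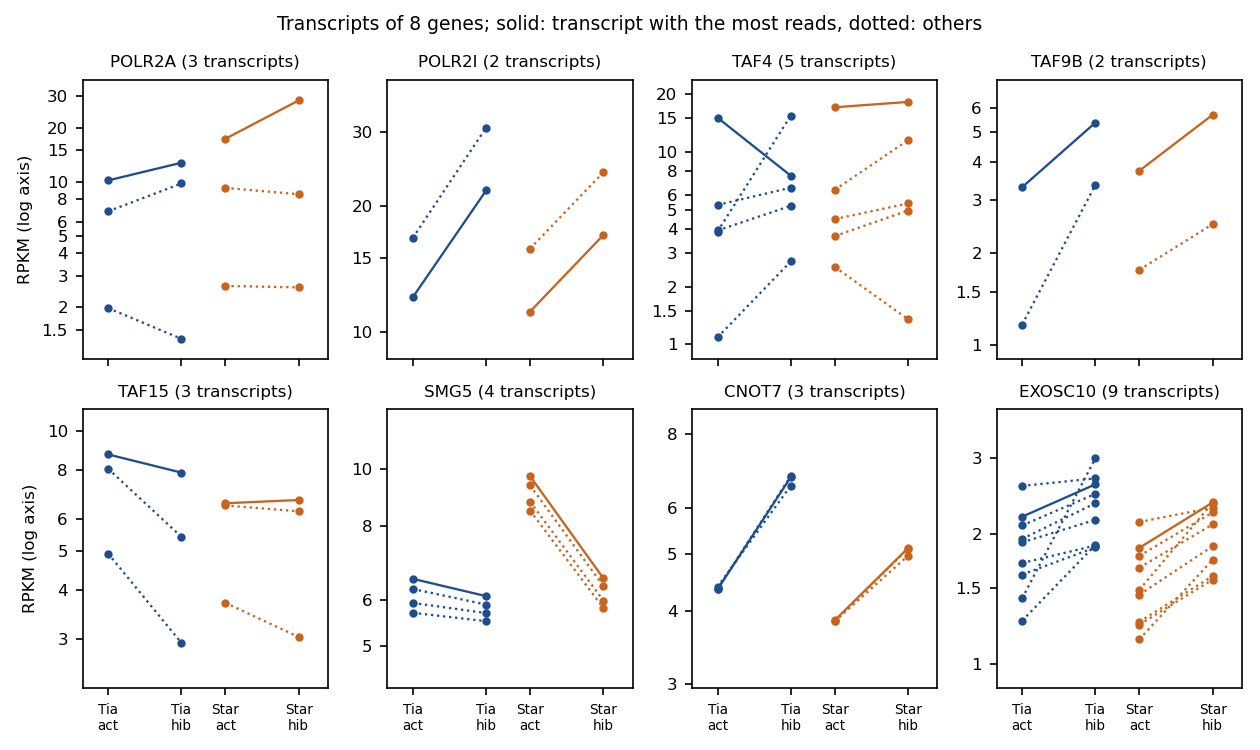
RPKM on a log axis of every transcript of 8 genes, with lines from the active to the hibernating library of Tia (blue) and Star (orange), solid for the transcript with the most reads. The transcripts of CNOT7 and SMG5 run side by side, those of EXOSC10 all rise but some cross, and those of POLR2A and TAF4 cross or diverge.

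Genes with several transcripts differed in how far these moved together. In 21 genes more than 1 transcript was measured, and in 4 of them, CPSF6, CSTF2, POLR2A and TAF4, the mean changes had both signs. Transcripts of one gene in this assembly can share stretches of sequence and hence reads, so the 9 of EXOSC10 or the 4 of SMG5 are not 9 or 4 separate measurements. The 32 genes with a single transcript had a median log2 change of 0.15.

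The other genes of transcription and message decay were read from a list of 171 symbols that the naming rule does not cover, of which 77 were measured. Their median log2 change was 0.19. Of the 77, 42 (54.5%) were higher in hibernation in both bears, beside 48.7% of all named genes, and 6 (7.79%) were lower in both, beside 16.1%. The states did not overlap in 32 (higher, 41.6%, beside 35.8%) and 2 (lower, 2.6%, beside 8.11%). None of their 134 transcripts passed limma's adjusted p of 0.05 or reached a score of 0.8, and 9 transcripts of 6 genes (6.72%) had an unadjusted p under 0.05, beside 9.08% of all named transcripts. All 9 were higher in hibernation, and they were picked by that p, so other transcripts of the same genes are given where they differ in direction. MED4 and MED25 are subunits of Mediator, the bridge between regulators and polymerase II. MED25 had 6.93 and 4.51 RPKM in Tia and 7.61 and 4.84 in Star by its transcript with the most reads (0.59 ± 0.21), while 1 of its 5 transcripts was lower in both bears (−0.15 ± 0.25). The transcripts of MED4 gave 0.67 and 0.70. CTDSPL, a phosphatase related to those that act on the tail of polymerase II, gave 0.57 to 0.83 over 3 transcripts. PCF11, which couples cleavage to termination (0.62), had 1 such transcript. So did TNRC6A, which recruits CCR4-NOT to microRNA targets (0.73), and SNAPC4, a subunit of the factor for small nuclear RNA genes (0.59). By their transcripts with the most reads, PCF11, TNRC6A and SNAPC4 gave 0.49, 0.24 and 0.40. The remaining transcripts of TNRC6A gave 0.07 and 0.09. PCF11 also had 1 transcript that was lower in both bears (−0.27 ± 0.35). By group, the medians were 0.15 for other polymerase and initiation factors, 0.17 for Mediator, 0.21 for elongation factors, 0.10 for other end processing, 0.23 for other deadenylation and decapping and 0.09 for other exosome and nonsense-mediated decay genes.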

How the data were processed

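The authors assembled bear transcripts de novo (Newbler 2.3, from pooled and paired-end reads not analysed here), named them by BLAST against human proteins (Ensembl 66), aligned single-end reads with SOAP2 (at most 2 mismatches) and deposited RPKM. How reads matching several transcripts were assigned, and whether strand was used, is not given in the sources used here. No transcript is below 1 RPKM in any library, so fold changes near that value are bounded. Of the 53 symbols, 51 occur in the bear RefSeq annotation (UrsArc2.0); the transcripts carry no genome coordinates and their sequences were not used here.

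limma 3.58.1 was run on log2 of the deposited RPKM plus 0.5, 2 hibernating against 2 active libraries (R 4.3.3, trended prior, Benjamini-Hochberg adjustment over 9093 named transcripts). Values in brackets in the text are mean log2 changes with limma's standard error. This fit leaves the bears unpaired, so the error includes differences between them. Counts of states without overlap leave the bears unpaired as well. The score followed the description of NOISeq (threshold 0.8). Read totals were inferred from values of transcripts of at most 500 bases, of which 95.2% to 97.0% per library were whole reads within 0.1 read; these totals only describe depth. Both states came from the same bears, so the bear pairs the libraries, and Tia minus Star in hibernation correlated with Tia minus Star in activity at Pearson r = 0.356 over the 9093 transcripts. The fit with the bear as a replicate block gave 0 members at an adjusted p under 0.05 (lowest 0.34).

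Genes were represented by the transcript with the most reads (its mean RPKM multiplied by its length). Library values are given for transcripts with an unadjusted p under 0.05 or a score of at least 0.8, for the genes with the 10 highest and 10 lowest changes, for the most abundant gene of each group and for 8 core subunits; further transcripts of POLR1A, POLR2A, TAF4 and TAF15, and POLR2E and POLR2G, were added after their values were seen. Results of 2 member genes are not reported here by gene. Members, groups and lists were chosen with earlier results of these data known. Alternatives covered scaling, pseudocount, RPKM minimum, prior, pairing, transcript choice and each library left out. limma and the score were tested on simulated data. The changes put in for limma were larger than that of any member, so the simulation does not show whether changes of the size seen here would be found. Python 3.11.15, pandas 2.3.3, numpy 2.4.6 and matplotlib 3.10.9 served for tables and plots.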

Additional observations from a re-analysis of the deposited data

How the results depend on the processing

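No member had an adjusted p under 0.05 in any of the alternatives run, the replicate block and all deposited transcripts included, and the lowest value of a transcript described by library was 0.069 (TAF4, 749 bases, without hibernating Star). With the bear as a replicate block, 9 members instead of 8 had an unadjusted p under 0.05 (9.38%, beside 13.5% of all named transcripts), and no call changed. The counts of members above and below without overlap, 42 and 4, became 22 and 13 with median-ratio scaling, 24 and 14 with upper-quartile scaling, and 13 and 1 of the 33 members with a mean of at least 5 RPKM (39.4% and 3.0%, beside 38.4% and 9.2% of all named transcripts). The median log2 change over the 53 genes, 0.178, became 0.047 and 0.058 with these scalings, 0.198 at a mean of at least 5 RPKM and 0.221 with a pseudocount of 0.1; with a library or a bear left out it ranged from 0.117 (without active Star) to 0.194. Under the median-ratio and upper-quartile scalings the median over all named genes fell as well, to −0.004 and 0.008. The cause of these shifts was not tested beyond the change of scale itself.

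Of 496 alternative values of the 36 transcripts chosen for description by library, 468 kept their direction and 28, in 13 transcripts, reversed. UPF2 changed to −0.023 and −0.010 under the median-ratio and upper-quartile scalings, and TAF4 to 0.341 by the mean of its transcripts instead of the one with the most reads. The remaining reversals came with a library or a bear left out, over which the log2 change ranged from −0.058 to 1.066 for POLR2A, −0.133 to 0.085 for POLR2F, −0.073 to 0.430 for POLR1A, −0.097 to 0.058 for TAF1B, −0.220 to 0.062 for POLR3C, −0.740 to 0.206 for GTF3C3, −0.310 to 0.127 for GTF3C5, −1.043 to 0.177 for TAF4, −0.722 to 0.223 for TAF5, −0.442 to 0.268 for TAF6, −0.804 to 0.087 for CNOT3, −0.051 to 0.385 for SMG1 and −0.003 to 0.271 for UPF2. Without both libraries of Tia the values were 0.036 for POLR2F, 0.09 for TAF4, 0.049 for TAF6 and −0.054 for POLR1A, and without both of Star 0.049 for GTF3C3. With only a hibernating library left out, GTF3C5 ranged from −0.238 to 0.055 and TAF5 from −0.66 to 0.161. Of the other transcripts so chosen, 15 kept their direction but moved by over 1.5 times when a library or bear was left out (POLR2B from 0.057 to 0.810, the TAF4 transcript of 749 bases from 0.807 to 1.872, EXOSC6 from −0.798 to −0.079), and 8 moved by less. What read depth, from 23 reads per value upward, limits was not tested.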
